A study of Mus musculus with 10 samples.

Results

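Reissner's membrane epithelial cells of the aged cochlea were selected from single cell RNA sequencing libraries by the genes they carried. A cell was selected when at least 1 unique molecular identifier (UMI, the tag that marks 1 captured RNA molecule) was present for at least 3 of the 6 genes Crhbp, Vmo1, Lrp2, Slc26a7, Dkk2 and Tmem72, and for fewer than 3 of the 6 hair cell genes Myo6, Myo7a, Pou4f3, Tmc1, Kncn and Gfi1. The rule selected 368 of the 7272 cochlear cells that passed the limits on quality, which was 5.06% (exact binomial 95% interval 4.57 to 5.59, counting error only). The series held 17696 such cells over the cochlea and the vestibular organs. The libraries came from male and female wild-type CBA/J mice aged 22 months, with 7 to 8 mice pooled in each, and no agent was given. The cochlear sensory epithelium and the vestibular sensory epithelium were dissociated and captured separately with 3′ chemistry. Replicates 1 and 2 of each organ held the same cells, since all 24 cells selected in cochlear replicate 1 were also selected in replicate 2, and at equal totals their counts, over genes with at least 10 UMIs in both together, were closer than sampling noise allows for separate libraries (chi-square of 0.110 per degree of freedom in the cochlea and 0.0964 in the vestibular organs, against 18.6 to 46.0 for replicate 1 and the other replicates). Replicate 2 had fewer UMIs in the same cells, by ratios of 0.961 and 0.968. Replicates 1 and 2 were counted once, so each organ had 4 libraries, called replicates 1, 3, 4 and 5. The organ of each library was taken from its title. The titles give 5 libraries per organ, whereas the design text of the series speaks of 6 for the cochlea and 4 for the vestibular organs. Young mice were not analysed here, and no value below is a change with age.

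Reissner's membrane is the thin partition between the scala media, which holds potassium-rich endolymph, and the scala vestibuli, which holds perilymph. Its endolymphatic face is a sheet of epithelial cells joined by tight junctions, and its perilymphatic face is a loose layer of mesothelial cells. The epithelium is known to absorb sodium from endolymph through the epithelial sodium channel at the apical side and the sodium pump at the basolateral side.

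The cochlear libraries held 2738036, 26974948, 5349308 and 5452292 UMIs in replicates 1, 3, 4 and 5. The selected cells numbered 24 of 571 kept cells in replicate 1, 254 of 5070 in replicate 3, 52 of 695 in replicate 4 and 38 of 936 in replicate 5. They held 60151, 942303, 197740 and 171683 UMIs. Replicate 3 thus gave 69.0% of the selected cells, and replicate 1 was the shallowest sum, so a gene of few UMIs is least precise there. The median selected cell had 2839 UMIs, against 2138 in the other kept cochlear cells. Mitochondrial genes took 4.52%, 7.88%, 2.29% and 5.50% of the UMIs of selected cells in the same order. No barcode was shared between selected cells of different libraries.

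The same rule was applied to the vestibular libraries, whose organs have no Reissner's membrane. It selected 12 of 867 cells (1.38%) in replicate 1, 15 of 5438 (0.276%) in replicate 3, 11 of 2448 (0.449%) in replicate 4 and 17 of 1671 (1.02%) in replicate 5. In the cochlea the shares were 4.203%, 5.01%, 7.48% and 4.06%. All cochlear libraries were above all vestibular libraries, with means of 5.19 ± 1.59% and 0.782 ± 0.511% (SD, n = 4 each), a ratio of 6.64. The shares come from the genes of the rule, which were chosen as markers of a cochlear epithelium, so they are given as a description without a test. The number of selected cells depended on replicate 3, since 114 remained without it, while the mean share without it was 5.25%.

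**Figure D1:**
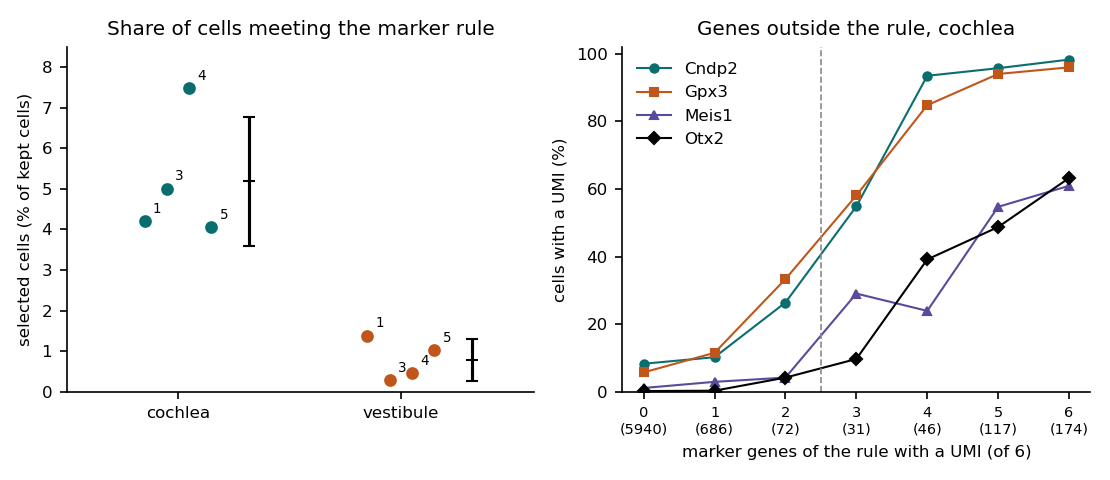
Left, the percent of kept cells selected by the marker rule in each library of the cochlea and the vestibular organs, with the mean and SD; the cochlear libraries lie between 4.06% and 7.48% and the vestibular libraries between 0.276% and 1.38%. Right, the percent of kept cochlear cells with a UMI of Cndp2, Gpx3, Meis1 or Otx2, none of which is in the rule, by the number of rule genes with a UMI, with the number of cells in each class below the axis; Otx2 goes from 0.185% of cells with none of the 6 genes to 63.2% of cells with all 6.

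Cells just outside and just inside the threshold are described, without a test, by Otx2 and Cndp2, which are not in the rule but are among the genes with the highest ratios in the selected cells. Of the 72 cells with exactly 2 rule genes, 4.17% had a UMI of Otx2 and 26.4% of Cndp2, at a median of 2521 UMIs per cell. Of the 31 cells with exactly 3, 9.68% had Otx2 and 54.8% had Cndp2, at a median of 2320 UMIs, and the level of Otx2 was 11.1 CPM in the former and 16.9 CPM in the latter. With 4 rule genes the shares were 39.1% and 93.5% over 46 cells, although these cells were the shallowest with a median of 1532.5 UMIs. Cells with 5 or 6 rule genes were 79.1% of the selection, and within it the cells with exactly 3 had the lowest shares of both genes. The limit on hair cell genes left out 5 further cells. In the vestibular selection, cells with 5 or 6 rule genes were 47.3%.

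The 6 rule genes were higher in the selected cells by construction. Vmo1, a homolog of an egg membrane protein that is secreted, was at 9576, 14556, 14908 and 18033 UMIs per 1000000 UMIs of the population (CPM) in the selected cells of replicates 1, 3, 4 and 5, and at 17.2 CPM on average in the other kept cells. Crhbp, which encodes the secreted protein that binds corticotropin-releasing hormone, was at 12402, 10681, 10332 and 8271 CPM. Lrp2, the endocytic receptor megalin, was at 4588, 2941, 3125 and 3681 CPM. All of these libraries were far above the other cells, and the order of libraries differed between the genes. Slc26a7, an anion transporter, had a mean of 2038 ± 642 CPM, Dkk2, a secreted modulator of Wnt signalling, 785 ± 342 CPM, and Tmem72 558 ± 139 CPM (SD, n = 4). Vmo1 had a UMI in 98.9% of selected cells, against 4.51% of macrophage-like cells, which should lack it, at median depths of 2839 and 2595 UMIs.

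Marker lists of other cell types were compared between the selected cells and the other kept cells, as means over libraries and without a test. Epcam, an adhesion molecule of epithelia that the rule did not use, was at 1141 ± 215 CPM and had a UMI in 85.9% of selected cells against 5.19% of macrophage-like cells. Of the 6 marginal cell genes, Kcne1, Esrrb and Bsnd had no UMI in any selected cell, while Atp13a5 was at 213 CPM and Kcnq1 at 32.5. The list summed to 279 ± 45.9 CPM against 7.58 CPM in the other cells, so it was higher in the selection, mostly through Atp13a5. Marginal cells are the endolymph-facing epithelium of the stria vascularis and also express megalin. The 6 hair cell genes summed to 203 ± 15.4 CPM, against 469 in the other cells, and their most abundant gene in the selection was Myo6. The 6 supporting cell genes summed to 66.5, 221, 147 and 29.1 CPM in replicates 1, 3, 4 and 5, against 1769 in the other cells, with Epyc the most abundant. The fibroblast genes summed to 0, 214, 207 and 332 CPM with Dcn the most abundant and Col1a1 at 0, and the macrophage genes to 16.6, 293, 0 and 69.9 CPM with C1qa the most abundant. The 5 erythroid genes summed to 432, 7025, 65.7 and 116 CPM, with Hbb-bs the most abundant. In replicate 3, 96.9% of their 6620 UMIs were held by 7 cells. The 6 glial genes, at 948, 844, 647 and 676 CPM, were above the mean of the other cells, 603 ± 307 CPM, by less than the spread of the latter, and the most abundant was Sox10, which otic epithelium also expresses, at 334 ± 123 CPM. The fibrocyte genes were at 4065 ± 925 CPM against 3982 ± 1555 CPM, but only Cnmd, at 3132 CPM against 212 CPM, had a higher mean. The other 7 fibrocyte genes had lower means and summed to 933 ± 828 CPM against 3770 ± 1495 CPM. The endothelial genes (64.5 ± 45.9 against 71.5 CPM) and the mural genes (67.5 ± 60.7 against 101.7 CPM) also differed by less than the spread, and their most abundant genes Kdr (40.0 against 4.14 CPM) and Rgs5 (35.7 against 2.79 CPM) had higher means in the selection and were highest in replicate 1. Without Kdr the endothelial genes summed to 24.5 ± 6.70 CPM against 67.4 CPM, and without Rgs5 the mural genes to 31.8 ± 26.6 CPM against 98.95 CPM, with 4 of 6 genes lower in each list. The neuronal genes had a mean sum of 28.1 CPM against 559, the melanocyte genes of 31.9 against 234, the granulocyte genes of 9.73 against 2990, the B cell genes of 4.71 against 638 and the T cell genes of 8.27 against 80.0 CPM. Doublets were not removed, and 22 selected cells had a UMI in at least 3 genes of another class.

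The name Reissner's membrane epithelium rested on the 6 rule genes, and no spatial measurement was used here. Crh, Ucn, Ucn2 and Ucn3, the genes of the ligands that the Crhbp protein can bind, had no UMI in the selected cells. Against 3 counts per library as the floor, this allows levels of up to 49.9, 3.18, 15.2 and 17.5 CPM in replicates 1, 3, 4 and 5.

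Promoter sequences are shown for Vmo1 and Crhbp, which had the most UMIs per 1000000 of the 6 rule genes, and for Otx2, the transcription factor with the highest ratio over the other cells. Each covers 250 bases before a RefSeq transcript start (GRCm38.p6) and is written on the strand of the gene. Capitals mark TAATCC or its reverse complement GGATTA, the core letters bound by homeodomain proteins of the OTX type. The Vmo1 window is chr11:70514617-70514866 (minus strand), where the match begins 116 bases before the start. The Otx2 window is chr14:48665110-48665359 (minus strand), 1 of 4 starts listed for the gene and the only one with a match, 211 bases before the start on the other strand. The Crhbp window, chr13:95444832-95445081 (minus strand), holds no match.
Vmo1: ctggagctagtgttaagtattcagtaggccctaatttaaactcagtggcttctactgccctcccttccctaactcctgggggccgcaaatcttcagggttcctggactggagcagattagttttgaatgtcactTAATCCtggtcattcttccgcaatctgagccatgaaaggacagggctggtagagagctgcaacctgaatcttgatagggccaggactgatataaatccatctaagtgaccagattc
Otx2: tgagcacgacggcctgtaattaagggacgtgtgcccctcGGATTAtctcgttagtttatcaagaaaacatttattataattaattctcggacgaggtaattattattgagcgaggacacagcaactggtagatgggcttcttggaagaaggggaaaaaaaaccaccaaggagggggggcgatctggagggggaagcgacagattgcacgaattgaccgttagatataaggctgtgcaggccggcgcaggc
Crhbp: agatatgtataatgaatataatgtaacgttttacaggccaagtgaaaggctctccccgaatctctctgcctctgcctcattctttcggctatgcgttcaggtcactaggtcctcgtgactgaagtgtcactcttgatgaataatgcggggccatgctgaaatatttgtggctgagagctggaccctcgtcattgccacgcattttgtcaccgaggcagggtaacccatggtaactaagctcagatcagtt

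Both strands of 32851 promoter windows were searched for these letters, and 6.25% held them, or 7.21% of 27025 genes. Among the 15 leading genes with a window, which include 5 of the 6 rule genes, Vmo1 and Otx2 had a match. TGACAG, the core letters bound by MEIS proteins, was present in 15.9% of windows and, among the same 15 genes, in that of Rgs4 alone. A match of 6 letters is a description of the sequence and not a binding site.

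Outside the rule, the genes with the highest ratios over the other kept cells were A930003A15Rik, a long noncoding RNA, Postn and Otx2, each above several rule genes. The leading genes are described without a test, because the cells had been chosen by expression. Among 1401 genes with at least 100 CPM and a UMI in at least 25% of selected cells, the 20 with the highest ratio of CPM to that in the other kept cells were listed, and 6 of them were rule genes.

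Otx2 (chr14:48657677-48673819), a homeodomain factor of head and inner ear development, was at 366, 278, 298 and 268 CPM in replicates 1, 3, 4 and 5, against 0.439 CPM in the other cells. The libraries were close to each other, and 51.1% of selected cells had a UMI, against none of the macrophage-like cells. Meis1 (chr11:18879817-19018985), another homeodomain factor, was at 249, 266, 263 and 285 CPM, against 2.81. Its mean was 266 ± 14.9 CPM. Lmx1a (chr1:167689237-167848741), a LIM homeodomain factor of the non-sensory inner ear, varied more, at 316, 114, 101 and 198 CPM, against 1.35.

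Postn, which encodes the matricellular protein periostin, was at 1097, 376, 521 and 431 CPM, against 0.621 in the other cells, and replicate 1 was the highest. The long noncoding RNA A930003A15Rik was at 183, 112, 147 and 134 CPM, against 0.0782. Both were near 0 outside the selection in every library. Cndp2, a cytosolic dipeptidase, was at 3874, 2759, 3575 and 3035 CPM, against 29.0, and its relative Cndp1, which cleaves carnosine, had a mean of 565 ± 156 CPM, against 1.49. Gpx3, the secreted glutathione peroxidase, was at 2411, 2042, 1977 and 1841 CPM, against 21.4. It had a UMI in 90.8% of selected cells and 19.2% of macrophage-like cells, or 71.5% and 10.6% with each cell thinned to 1000 UMIs. Further genes of small-molecule metabolism were Bbox1, the last enzyme of carnitine synthesis, at 182 ± 46.3 CPM, and Maob, a monoamine oxidase, at 179 ± 62.0 CPM, against 1.18 and 1.47 in the other cells. The others were Atp13a5, a P5-type ATPase, at 213 ± 39.3 CPM, Tm4sf5, a tetraspanin-like membrane protein, at 326 ± 81.1, Rgs4, a regulator of G protein signalling, at 212 ± 71.0, and Fut9, a fucosyltransferase, at 237 ± 87.0 CPM.

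**Figure D2:**
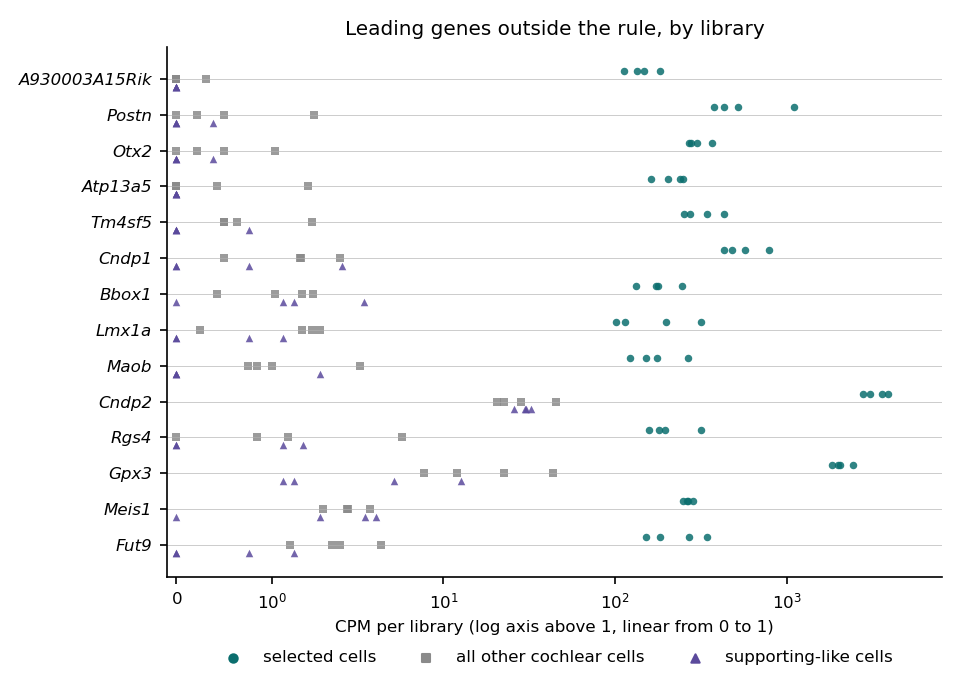
CPM of the 14 leading genes outside the rule in each cochlear library (symmetric log axis), for the selected cells, the supporting-like cells and all other kept cells. Otx2 is between 268 and 366 in the selected cells and at 0.439 on average in the others.

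Within the selection, Ttr, the carrier of thyroxine and retinol, was concentrated in few cells. It was at 382, 1910.2, 2058 and 955 CPM in replicates 1, 3, 4 and 5, with a mean of 1327 ± 797 CPM. A UMI was present in 99 of the 368 selected cells (26.9%), and 50 cells with at least 10 UMIs held 94.4% of its 2394 UMIs. The highest cell, in replicate 3, held 551 UMIs. In the vestibular selection Ttr was at 3550.1, 975.1, 8279 and 7556 CPM, a range that overlapped the cochlear one, and the difference did not pass the test (log2 fold change -2.07, SE 0.56, edgeR adjusted p = 0.063), while DESeq2 gave an adjusted p of 0.0161.

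The selected cells were next compared with supporting-like cells of the same cochlear libraries, to place them beside another epithelium of the endolymphatic space. These were 599 cells (77, 336, 83 and 103) with a UMI in at least 3 of Sox2, Slitrk6, Otogl, Otog, Epyc and Matn4, in fewer than 3 hair cell genes and in fewer than 3 rule genes. Their median depth was 5201 UMIs. UMIs were summed per library and population and tested with edgeR. Both populations were chosen by expression, the genes of both rules were left out, and a gene that accompanies a rule gene had to differ, so the counts describe the distance between these populations. Of 6864 genes tested, 772 (11.2%) were higher and 880 (12.8%) lower in the selected cells, together 1652 (24.1%), and 1778 (25.9%) had libraries that did not overlap. Scaling by library size alone moved the median log2 fold change over all genes from -0.04 to 0.11 and the share of calls that were higher from 46.7% to 57.1%. Without replicate 3, 940 genes were called in place of 1652.

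The genes with the largest differences included several that were nearly absent from supporting-like cells, whose pooled sum was 4618239 UMIs. Atp13a5, Fap, a membrane-bound serine protease, Gpc3, a cell surface proteoglycan, and A930003A15Rik had no UMI there and were at least 343-fold, 269-fold, 199.7-fold and 189.6-fold higher in the selected cells (bounds against 3 counts over the group, pooled UMIs). Postn had 1 UMI in supporting-like cells against 597 in the selected cells, a ratio of 2009.7 (counting interval 359 to 79511). Otx2 had 1 against 389 UMIs, a ratio of 1309.5 (234 to 51854). Lypd2, a protein of the Ly6 family, had 1 against 338 UMIs, a ratio of 1138 (203 to 45073). Tm4sf5 and Cndp1 had ratios of 638 (175 to 5287) and 762 (260 to 3704), and Ttr was higher by 9.57 on the log2 scale (SE 0.67).

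On the lower side, Ceacam16, a tectorial membrane glycoprotein, was at 16.6, 39.3, 20.2 and 23.3 CPM in the selected cells and at 1710, 1104, 1236 and 1122 CPM in supporting-like cells (log2 fold change -5.52, SE 0.33, adjusted p = 4.02e-10). Gata3, a zinc finger factor of the sensory and supporting epithelium, was at 49.9, 36.1, 5.06 and 40.8 CPM against 2112, 732, 879 and 909 CPM (-5.28, SE 0.44, adjusted p = 2.33e-08). For both genes the libraries of the populations lay far apart. Dgkb, a diacylglycerol kinase, was lower by a log2 fold change of -5.26. Rbp7 had 2 UMIs in the selected cells against 823, a supporting-to-selected ratio of 122 (33.7 to 1011), and Lockd had 3 against 1110, a ratio of 109.9 (37.5 to 534). The ratios of Nckap5, 6330411D24Rik, Plbd1, Gdf6 and Lrrc10b lay between 46.0 and 86.7.

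Of the genes of sodium absorption, 8 of 19 tested were higher and 3 lower, with a median log2 fold change of 0.65 against -0.04 over all genes tested. With the library as a replicate block, 11 were higher and 3 lower. The counts of this and the following lists stand beside 11.2% of all genes higher and 12.8% lower. Counts with the block stand beside 1045 genes higher and 1244 lower of 6864. Scnn1a, the alpha subunit of the epithelial sodium channel, was at 332, 145, 137 and 134 CPM against 28.4, 11.1, 17.4 and 16.2 CPM (3.19, SE 0.30, adjusted p = 9.43e-08). Replicate 1 was the highest library of Scnn1a, and every library of the selected cells was above those of the supporting-like cells. The beta subunit Scnn1b was at 349, 142, 96.1 and 186 CPM against 64.5, 33.9, 29.0 and 33.7 CPM (1.99, SE 0.30), and the gamma subunit Scnn1g, at 27.1 against 5.09 CPM, was higher by 2.46 (SE 0.53). Fxyd3, a regulator of the pump, was higher by 3.08. Of the beta subunits of the pump, Atp1b2 was at 377 ± 103 CPM against 41.7 ± 8.54 CPM and higher by 3.02 (SE 0.26). The beta subunit Atp1b1 (-1.58), the regulator Fxyd6 (-1.72) and Nedd4l, the ubiquitin ligase that removes the sodium channel from the membrane (-1.08), were lower, and Nedd4l was not called without replicate 3 or without replicate 5. Among the genes of corticosteroid action, the kinase Sgk1 had a log2 fold change of 0.62 (adjusted p = 0.0696) and Nr3c2, the mineralocorticoid receptor, of 0.95 (adjusted p = 0.0503). Both passed with the library as a replicate block (adjusted p = 0.00138 and 0.0123). Nr3c1, the glucocorticoid receptor, had 0.20 (adjusted p = 0.707).

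Of 6 potassium transport genes tested, Slc12a2, the sodium-potassium-chloride cotransporter, was higher (1.87, SE 0.24) and the other 5 were lower. Kcnj16 and Kcnj10, inward rectifier channels, had log2 fold changes of -4.88 and -4.71, and the potassium leak channel gene Kcnk1 had -2.99. Kcnj10 was at 0, 10.6, 10.1 and 0 CPM against 436, 167, 156 and 117 CPM. Of 8 anion and acid-base genes, Slc26a2, a sulfate transporter, and Slc4a2, an anion exchanger, were higher by 3.16 and 2.17. Lower were 4 genes, among them the carbonic anhydrases Car14 (-3.28) and Car2 (-2.85) and the bicarbonate transporter Slc4a7 (-1.64), which was not called without replicate 4 or without replicate 5.

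**Figure D3:**
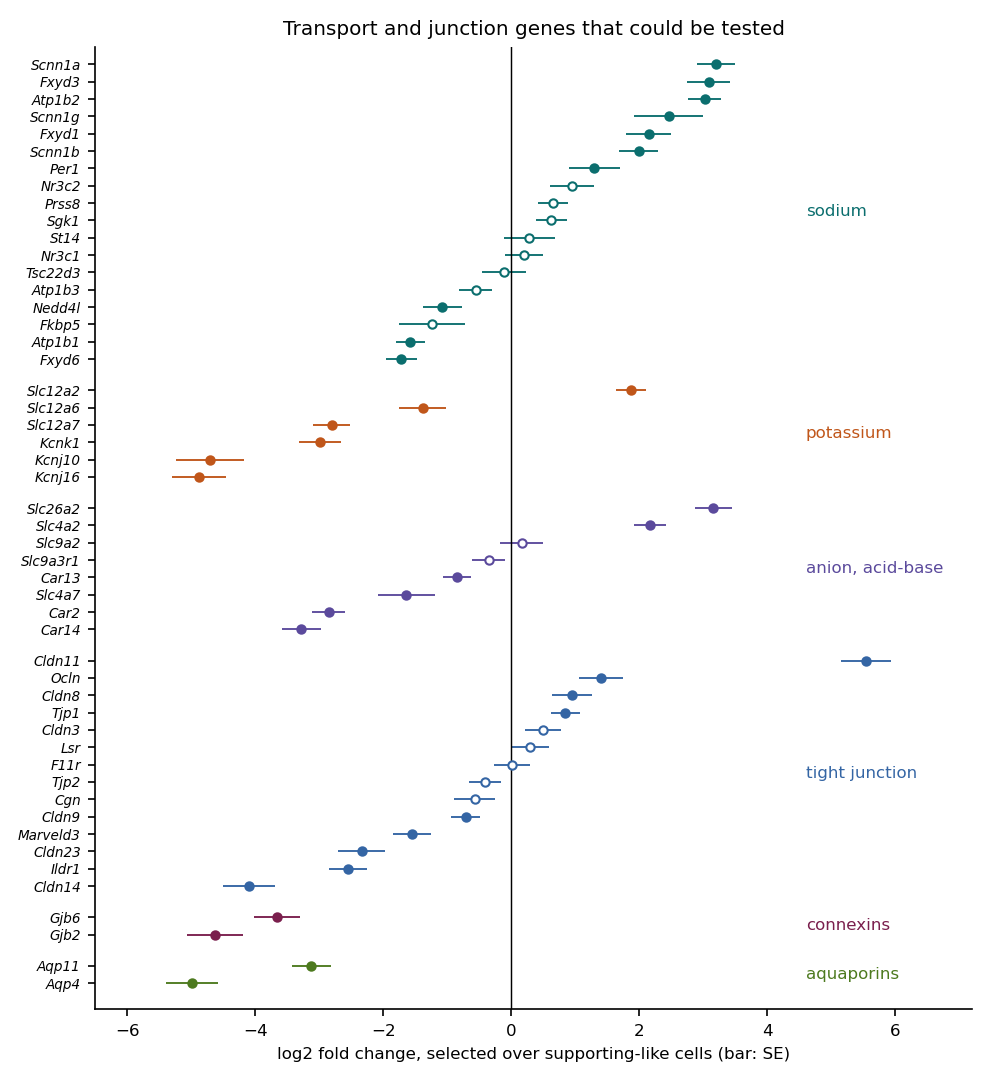
Log2 fold change with its SE (edgeR) between the selected cells and the supporting-like cells for genes of ion transport, tight junctions, connexins and aquaporins, with filled points at an adjusted p under 0.05. Values above 0 are higher in the selected cells, as for Scnn1a at 3.19, and values below 0 lower, as for Gjb2 at -4.63.

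Junctional and channel genes differed by member. Cldn11, the claudin of strial basal cells and myelin, was at 133, 71.1, 80.9 and 105 CPM against 0, 1.91, 1.16 and 1.35 CPM (5.55, SE 0.39). Ocln, occludin, was higher by 1.40, and Cldn8 by 0.95. The lower members were led by Cldn14 (-4.10), Ildr1, a tricellular junction protein (-2.55), and Cldn23 (-2.34), and Cldn9, the most abundant tight junction gene of the selected cells at 316 ± 64.3 CPM, was lower by a log2 fold change of -0.72 and was not called without replicate 3 or 4 or with scaling by library size alone. In all, 4 of 14 tight junction genes were higher and 5 lower, with a median of -0.20, and Cldn8 was not called by DESeq2 or without any 1 of replicates 3, 4 and 5. Both connexins tested, Gjb2 (-4.63, SE 0.44) and Gjb6 (-3.66, SE 0.36), which form gap junctions of cochlear supporting cells, were lower. Gjb2 was at 0, 43.5, 0 and 17.5 CPM against 761, 504, 646 and 533 CPM. The connexins summed to 45.3 CPM in the selected cells against 1009 in all other kept cells. Both aquaporins tested were lower, Aqp4 by a log2 fold change of -4.99 and Aqp11 of -3.12.

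Among 13 genes of megalin-type endocytosis other than Lrp2 itself, 3 were higher, 3 lower and 7 did not pass the test, with a median of 0.20, and with the replicate block 5 were higher. Lrpap1, the chaperone of megalin and its relatives, was at 1164, 576, 485 and 588 CPM against 43.8, 58.7, 70.7 and 45.8 CPM (3.40, SE 0.27, adjusted p = 1.35e-08). Lrp1, a receptor related to megalin, was higher by 1.12 (adjusted p = 0.0193), but not called by DESeq2, its libraries overlapped, and its log2 fold change was -0.20 with the cells carrying genes of another class left out and -0.12 in the cells with at least 4 rule genes. The lower genes were Vldlr (-3.96), Ocrl (-1.13) and Rab11a (-0.90), the last not called without replicate 5. Cubn and Amn, which form the cubilin receptor, and Folr1, a folate receptor, had no UMI in the selected cells.

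Of 3 calcium transport genes tested, Atp2b2, a plasma membrane calcium pump, was higher, at 299, 344, 369 and 221 CPM against 36.1, 36.2, 37.1 and 45.8 CPM (2.85, SE 0.25), and so was Trpv4, a calcium-permeable channel (1.83, SE 0.32). Trpv5 and Trpv6, the channels of epithelial calcium uptake, had no UMI in the selected cells. Of the purinergic genes, 2 were tested and Entpd3, an ectonucleotidase, was higher by 2.77. P2rx2, the most abundant purinergic gene of the selected cells, was at 115 ± 50.1 CPM, with 90.5 CPM in supporting-like cells.

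Without the replicate block, transcription factors formed the list with the largest number higher, 10 of 17 tested. With it they had 10 higher, and sodium absorption had 11 of 19. Without it 4 factors were lower, and the median log2 fold change was 4.14. Tbx3 was at 249, 127, 111 and 204 CPM against 0, 1.91, 1.16 and 0 CPM (6.59, SE 0.41). Meis1 (6.52), Otx1 (6.47), Tbx1 (4.14) and Emx2 (1.68) were also higher. Pax2 was higher too, at 116, 30.8, 30.3 and 52.4 CPM against 0, 0, 1.16 and 1.35 CPM. No fold is given for Pax2, since it had so few UMIs in supporting-like cells. Meis2 and Lmx1a had 2 and 3 UMIs in supporting-like cells, with ratios of 246 (66.8 to 2048) and 202 (68.0 to 989). Lower factors besides Gata3 included Gata2 (-1.58) and Eya1 (-0.86), and Gata2 was not called without replicate 4 and Eya1 not without replicate 3 or 5 or with scaling by library size alone. Tbx3, Otx1, Pax2, Tbx1 and Eya1 were chosen after their values were seen. All of these are factors known from the development of the otic vesicle.

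In the Wnt pathway, 4 of 19 genes were higher and 5 lower, with a median of -0.27. Wnt4, a ligand, was at 66.5, 70.0, 91.0 and 87.4 CPM against 2.58, 1.91, 0 and 1.35 CPM (5.40, SE 0.40), and Sostdc1, a secreted antagonist of Wnt and BMP ligands, was higher by 5.62 (SE 0.53). Lgr4, an R-spondin receptor, was higher by 1.47, but not called without replicate 3. The receptors Fzd9 and Fzd4 had 1 and 3 UMIs in the selected cells, with supporting-to-selected ratios of 50.2 (8.89 to 1994) and 21.1 (7.12 to 103), and the antagonist Frzb was lower by a log2 fold change of -3.15. In the BMP pathway, 1 of 11 genes was higher (2 with the replicate block) and 6 lower, with a median of -1.03. The higher gene was the ligand Bmp5, with 2 UMIs in supporting-like cells and a ratio of 119.5 (31.9 to 1006). The lower genes included the ligand Bmp6 (-4.74) and the target genes Id2 (-2.88) and Id1 (-2.81).

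Of 10 epithelial identity genes, 4 were higher and 2 lower, with a median of 0.50. Cdh1, E-cadherin, was at 332, 197, 177 and 204 CPM against 90.3, 59.8, 62.5 and 40.4 CPM (1.64, SE 0.24). The keratin genes Krt18 (1.62) and Krt8 (1.21) and the factor Ovol2 (1.36) were higher, while Krt19 (-1.31) and Grhl1 (-1.86) were lower. Epcam, at 1141 against 1000.3 CPM, had a log2 fold change of 0.02 (SE 0.31). Of 8 basement membrane genes, 3 were higher and none lower, with a median of 0.74. They were Col4a4, a type IV collagen chain (4.66), Agrn, agrin (2.27), and Lama5, a laminin chain (1.08), which was not called by DESeq2, without replicate 1 or without replicate 5. The list of genes for acellular membranes had 1 of 6 higher, Col9a3 (1.39), or 4 with the replicate block, and 2 lower, Col11a1 (-1.76) and Col11a2 (-1.56), whose libraries overlapped, and Col11a1 was not called without replicate 3. Clu, clusterin, the most abundant gene of that list, was steady over the selected cells at 2377, 2392, 2453 and 2336 CPM, and its difference did not pass the test (0.50, adjusted p = 0.227) except with the replicate block (adjusted p = 0.0187). Cnmd, chondromodulin, from the fibrocyte list, was at 4938, 2259, 2291 and 3040.5 CPM against 289, 295, 471 and 381 CPM (2.90, SE 0.29), the only gene higher of 6 tested there, or 1 of 4 higher with the replicate block.

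Of 14 antioxidant genes, 3 were higher and 2 lower, against 11.2% and 12.8% of all genes, with a median of 0.23. Gpx3 was at 5.16, 12.6, 1.16 and 1.35 CPM in supporting-like cells, and thus higher by 8.03 (SE 0.47, adjusted p = 2.65e-10) in the selected cells. The metallothioneins Mt1, at 765, 898, 855 and 355 CPM against 51.6, 68.2, 20.9 and 8.08 CPM, and Mt2 were higher by 4.04 and 4.24. The intracellular peroxidases Gpx2 (-3.74) and Prdx6 (-1.19) were lower. Of 13 stress and immediate early genes, 2 were higher and 6 lower, with a median of -0.87. The small heat shock gene Hspb1 was at 615, 376, 263 and 600 CPM against 5.16, 17.5, 4.63 and 12.1 CPM (5.04, SE 0.37), and Ier3 was higher by 1.48. Jun (-2.91), Fos (-2.74) and Dusp1 (-2.69) were lower, with supporting-like cells of replicate 4 at 876 CPM of Jun and 306 CPM of Fos, well above the other libraries, and Fos was not called without replicate 3.

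Of 8 antigen presentation genes, 3 were higher and none lower (1 with the replicate block), with a median of 0.26. B2m, the light chain of class I molecules, was at 798, 449, 278 and 373 CPM against 126, 86.9, 60.2 and 84.9 CPM (2.18, SE 0.28). Psmb8, a subunit of the immunoproteasome, was higher by 1.91 and the class I chain H2-K1 by 1.13, the latter not called without replicate 3. Macrophage genes summed to 94.9 CPM in the selected cells and to 15.9 CPM in supporting-like cells, and their part in these differences was not tested. Of 5 cell cycle genes tested, the inhibitor Cdkn1c was higher (2.83, SE 0.35). The inhibitors Cdkn1b (-2.61), Rb1 (-1.31) and Cdkn2d (-1.05) were among the 4 lower, and Cdkn2d was not called without replicate 3 or without replicate 5. The proliferation genes Mki67 and Top2a had no UMI in the selected cells.

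Marginal cells of the stria vascularis share megalin with the selected cells. Only 18 marginal-like cells were found, all in cochlear replicate 3, so both populations were compared within that library, without a test, with exact Poisson 95% intervals that cover counting error only. Lrp2 was at 2941 CPM (2832 to 3052) in the selected cells and at 2781 CPM (2498 to 3087) in marginal-like cells, with overlapping intervals. Its chaperone gene Lrpap1 was lower in the selected cells, at 576 against 956 CPM (no interval was computed). Kcne1, a subunit of the marginal cell potassium channel and a gene of the marginal rule, was at 0 against 1216 CPM. Outside both rules, Slc12a2 was at 190.0 against 7022 CPM, lower in the selected cells. Fxyd2, a pump regulator, was at 2.12 against 284 CPM. The pump genes Atp1b2 (388 against 1509 CPM), Atp1b1 (259 against 1240 CPM) and Fxyd3 (237 against 735 CPM) were lower too, while Fxyd6 was higher (124 against 39.5 CPM). Higher in the selected cells were Cndp2, at 2759 against 39.5 CPM, and Gpx3, at 2042 against 1019 CPM. Otx2, Scnn1a and Scnn1b, at 278, 145 and 142 CPM in the selected cells, had no UMI in marginal-like cells. There the exact interval of a count of 0 reaches 29.1 CPM. Clu was at 2392 against 47.4 CPM, and Rgs4 was lower in the selected cells, at 195 against 474 CPM.

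**Figure D4:**
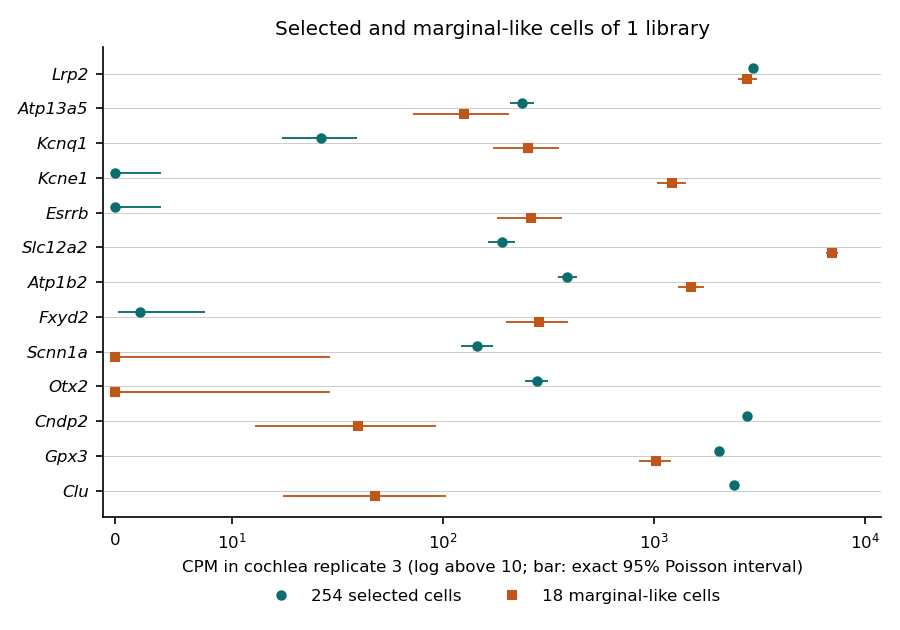
CPM in the selected cells and the 18 marginal-like cells of cochlear replicate 3, with exact 95% Poisson intervals, for genes chosen after their values were seen. The intervals overlap for Lrp2 and are apart for Kcne1, Slc12a2 and Cndp2.

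The vestibular cells picked by the same rule gave a contrast of organs, although the rule genes were chosen as markers of a cochlear epithelium. Cells with 5 or 6 rule genes were 79.1% of the cochlear selection and 47.3% of the vestibular one. In the cochlea, Meis1 was at 50.6 CPM in cells with exactly 3 rule genes and at 303 CPM in cells with all 6. Apart from a run on cells with at least 4, the part of this in the organ differences was not tested. Over the 6 rule genes the vestibular cells summed to 18850.0 CPM, against 31655 CPM in the cochlea, and these genes were not read as results. The vestibular selection was small, with 55 cells and 255215 UMIs in all. Of 1322 genes tested with edgeR, 14 (1.06%) were higher and 15 (1.13%) lower in the cochlear cells, together 29 (2.19%), 176 had an unadjusted p under 0.05, and 123 (9.3%) had libraries that did not overlap. The median log2 fold change was -0.03. Higher genes were 48.3% of the calls, or 59.3% with scaling by library size alone. In vestibular replicate 4, 1 cell held 2580 of the 2581 granulocyte UMIs, and the granulocyte genes summed to 94970 CPM there. With the 7 cochlear and 3 vestibular cells that had at least 10 granulocyte or erythroid UMIs left out, 43 genes were called, including all of the 29.

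Among the genes higher in the cochlear cells, Meis1 was at 249, 266, 263 and 285 CPM, against 27.7, 66.1, 0 and 94.3 CPM in vestibular replicates 1, 3, 4 and 5 (log2 fold change 2.05, SE 0.39, adjusted p = 0.00691). Rgs4 was at 316, 195, 157 and 181 CPM against 41.6, 16.5, 73.6 and 20.96 CPM (2.47, SE 0.45, adjusted p = 0.00524). Lypd2 was at 166, 245, 182 and 355 CPM against 27.7, 66.1, 0 and 0 CPM (3.18, SE 0.58, adjusted p = 0.00524). No vestibular library reached the lowest cochlear one for any of the 3 genes. The vestibular values rest on 15 UMIs of Meis1, 8 of Rgs4 and 6 of Lypd2 in all. A floor of 3 counts was 41.6, 49.6, 110 and 31.4 CPM in vestibular replicates 1, 3, 4 and 5, so a value of 0 there does not show absence. Sptssa, a subunit of the first enzyme of sphingolipid synthesis, was at 2643, 2434, 2407 and 2714 CPM against 818, 611, 736 and 1038 CPM (1.49, SE 0.25, adjusted p = 0.00311). Lrpap1, the megalin chaperone, was at 1164, 576, 485 and 588 CPM against 250, 182, 184 and 115 CPM (1.74, SE 0.33, adjusted p = 0.00704). Dpp4, a membrane peptidase, was at 731, 319, 268 and 402 CPM against 97.1, 116, 73.6 and 94.3 CPM (1.87, SE 0.38).

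Anxa2, a membrane binding annexin, had means of 419 and 107 CPM (adjusted p = 0.00524), and Mal, a raft protein from the glia list, of 293 and 101 CPM (1.31, SE 0.30). In the other cells of the cochlea and the vestibular organs, Anxa2 was at 314 and 146 CPM and Mal at 169 and 80.5 CPM. The part of free RNA from other cells in these differences was not tested. Col8a1, a short-chain collagen, had means of 978 and 331 CPM (1.36, SE 0.34), Postn of 606 and 157 CPM (1.58, SE 0.40) and Fut9 of 237 and 60.5 CPM (1.81, SE 0.41). The last 3 genes and Mal depended on single libraries. Col8a1 was not called without cochlear replicate 1 or without vestibular replicate 1, 4 or 5, and the same held for Postn. Neither was called in the cells with at least 4 rule genes (adjusted p = 0.147 for each), nor was Postn with the cells carrying genes of another class left out (adjusted p = 0.0945). Fut9 was not called without cochlear replicate 3 or 5 or vestibular replicate 5, and Mal without cochlear replicate 5 or vestibular replicate 1 or 5.

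The genes lower in the cochlear cells were led by Ntn1, the guidance molecule netrin 1, which was at 33.2, 35.0, 35.4 and 23.3 CPM, against 1345, 397, 626 and 639 CPM in the vestibular cells (-4.65, SE 0.37, adjusted p = 8.56e-07). Aqp1, a water channel, was at 16.6, 22.3, 70.8 and 52.4 CPM against 1289.7, 182, 552 and 1299.5 CPM (-4.60, SE 0.52, adjusted p = 6.59e-05). Both genes were low in every cochlear library, and their levels in the other vestibular cells were 28.0 and 12.96 CPM. Wnt4 was at 66.5, 70.0, 91.0 and 87.4 CPM against 361, 331, 258 and 168 CPM (-1.96, SE 0.30, adjusted p = 0.0014). Sfrp1, a secreted Wnt antagonist, was at 199, 124, 177 and 163 CPM against 555, 347, 368 and 293 CPM (-1.47, SE 0.28, adjusted p = 0.00697), but was not called in the cells with at least 4 rule genes (adjusted p = 0.0735). The long noncoding RNA 1810028F09Rik, near 0 in the other cells of both organs, had means of 66.3 and 202 CPM (-2.01, SE 0.31). Aebp1, a matrix-associated carboxypeptidase-like protein, had means of 59.3 and 457 CPM (-2.94, SE 0.36, adjusted p = 0.00013).

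Some of the lower genes were at least as abundant in other vestibular cells as in the vestibular selection. S100b, a calcium binding protein of glia and supporting cells, had means of 60.2 and 435 CPM (-2.64, SE 0.57), with 344 and 1558 CPM in the other cells of the cochlea and the vestibular organs. Apod, apolipoprotein D, had means of 328 and 1345 CPM (-2.11, SE 0.45), with 2122 and 4205 CPM in the other cells. The part of free RNA from other cells in these 2 differences was not tested. S100b was not called without cochlear or vestibular replicate 1, and Apod without cochlear replicate 5 or vestibular replicate 1 or 3. Hhatl, at 91.3 and 269 CPM (-1.62, SE 0.37), was not called without replicate 1 or 4 of either organ. Tbx2, at 109.6 and 222 CPM (-1.21, SE 0.29), kept its call only without vestibular replicate 3 among the libraries left out in turn, and lost it with scaling by library size alone (adjusted p = 0.0738) and with the cells carrying genes of another class left out (adjusted p = 0.102).

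**Figure D5:**
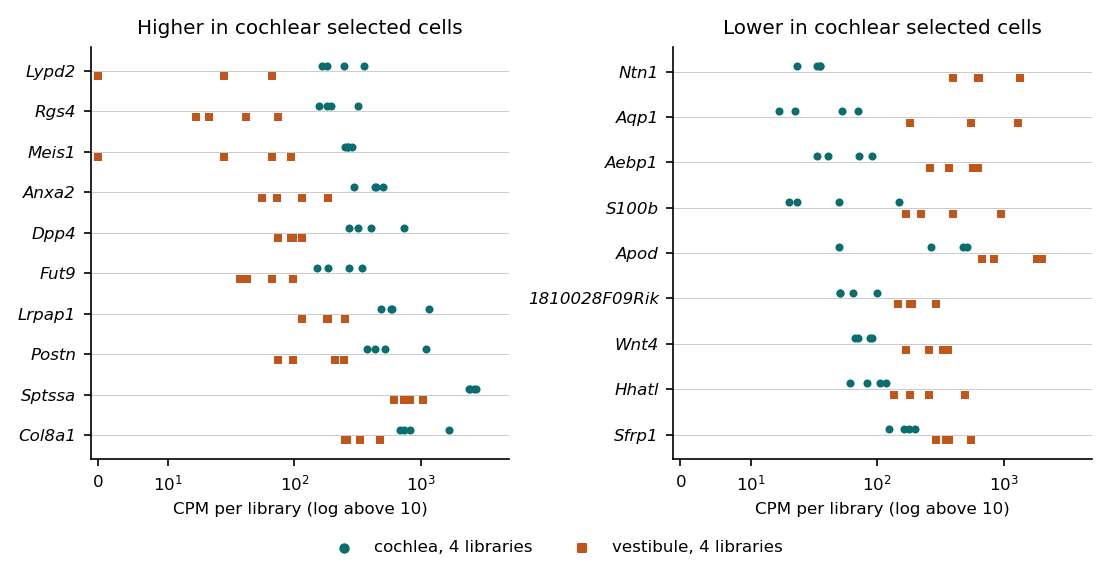
CPM (symmetric log axis) of 10 genes higher and 9 lower, those with the largest changes between the cells selected in the cochlea and those selected in the vestibular organs, for the 4 libraries of each organ. The libraries do not overlap for any of these genes, as for Ntn1 at 23.3 to 35.4 in the cochlea and 397 to 1345 in the vestibular organs.

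By role, the lists held few tested genes, and with 2.19% of all genes called, a list of this size without a call is not a result about its genes. None of 9 sodium absorption genes, 4 epithelial identity genes or 4 tight junction genes passed the threshold, while 1 of 7 transcription factors was higher (Meis1) and 1 lower (Tbx2), 1 of 5 endocytosis genes was higher (Lrpap1), and 2 of 3 Wnt genes were lower (Wnt4 and Sfrp1). Otx2 had a log2 fold change of -0.08 (SE 0.31, adjusted p = 0.96) and Gpx3 of -0.62 (adjusted p = 0.4). Scnn1a and Scnn1b had 0.89 and 0.13, and Cnmd, at 1.13, was just above the threshold with edgeR (adjusted p = 0.059) and below it with DESeq2 (adjusted p = 0.00971).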

How the data were processed

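The authors made the UMI count of each gene in each cell barcode with Cell Ranger from reads aligned to mm10, and deposited these raw, unnormalized counts for barcodes that the software had called. The submitters' processing notes name version 6.1.2, and the file headers name 5.0.1 for replicates 1 and 2 of both organs. The limits for a cell were 200 genes and 1000 UMIs as minimum and a mitochondrial share below 25%. The members and gene lists were chosen with earlier results of these data known, and support nothing by themselves. Replicate 2 of each organ repeated the cells of replicate 1 with 0.961 and 0.968 of their UMIs, and replicate 1 was used. At most 41 barcodes were shared by any other pair of libraries. Libraries held between 2738036 and 26974948 UMIs.

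Levels (CPM) are the UMIs of a gene per 1000000 UMIs of a population in a library, with the mean and SD over 4 libraries. As the chemistry reads 3′ ends, counts were not scaled by length, and the most abundant gene of a list is the one with the highest CPM. Populations of 5 or more cells were summed by library, and the sums went into edgeR 4.0.16 under R 4.3.3 (TMM factors, filter on low counts, quasi-likelihood test, Benjamini-Hochberg adjustment at 0.05 over all genes tested), after a check on simulated counts. Every adjusted p is from this test unless DESeq2 1.42.0 is named. Each library pooled several mice, so p-values measure the spread between pools. Folds of genes with at most 3 UMIs in a population are ratios of pooled UMIs with exact conditional 95% intervals, or bounds against 3 counts. Pax2 had no such ratio and is given as CPM. Intervals and floors cover counting error only. Selected and supporting-like cells of 1 number came from 1 library, and their deviations correlated at 0.190, 0.223, 0.165 and 0.111. Named genes were, per comparison, the 10 most changed called genes per direction without overlap and with at least 50 CPM, and of each list the most abundant members and those with the largest changes. The comparison with marginal-like cells, planned as a test, had cells in 1 library and was given as values. Results for some genes are not reported here. Alternatives were other scalings, filters, marker thresholds, left-out libraries and DESeq2. Gene positions are from GENCODE M21 (GRCm38), which matched 32158 of 32285 identifiers.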

Additional observations from a re-analysis of the deposited data

Results flagged for a closer look

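Of 261 groups of 4 libraries examined, 37 (14.2%) had 1 library whose gap to the nearest other exceeded Dixon's 95% critical value, where chance gives about 1 group in 20. That rate does not apply to 14 of the 37, in which 3 libraries were at 0 and the fourth held few UMIs, so that the gap is the whole range. Of the other 247 groups, 23 (9.31%) had such a library. In the cochlear selected cells, replicate 1 stood above the others for Col8a1 at 1679 CPM, Lrpap1 at 1164 CPM, Scnn1a at 332 CPM and Eya1 at 116 CPM, and it was at 0 for Car14. Slc12a2 was lowest in replicate 4, at 137 CPM. Replicate 3 alone held UMIs of Lockd (3.18 CPM), Rbp7, Gdf6 and Lrrc10b (2.12 CPM each), Fzd9 (1.06 CPM), Fzd4 (3.18 CPM) and Frzb (6.37 CPM), and replicate 1 was highest for 6330411D24Rik, at 16.6 CPM.

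In supporting-like cells, replicate 1 was the highest library for Gata3 (2112 CPM), Kcnj16 (1302 CPM), Gjb6 (552 CPM), Kcnj10 (436 CPM), Car14 (315 CPM), Scnn1b (64.5 CPM) and Agrn (38.7 CPM), and the lowest for Ovol2 (7.74 CPM). Replicate 4 was highest for Jun (876 CPM) and Fos (306 CPM) and lowest for Gpx2 (1003 CPM), and replicate 5 was highest for Atp2b2 (45.8 CPM). Replicate 3 alone held UMIs of Postn, Otx2 and Lypd2 (0.381 CPM each), of Otx1 (1.52 CPM), and of Tm4sf5, Meis2 and Bmp5 (0.762 CPM each).

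Among summed marker lists, vestibular replicate 4 stood apart for granulocyte genes (94970 CPM), erythroid genes (15197 CPM) and macrophage genes (258 CPM), and cochlear replicate 3 for erythroid genes (7025 CPM). In vestibular replicate 4, 1 cell held 99.96% of the granulocyte UMIs and 1 cell 98.8% of the erythroid UMIs.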

How the results depend on the processing

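The number of selected cells was 114 to 344 with 1 cochlear library left out, the lowest without replicate 3, and 257 to 440 under the other settings. The cochlear share exceeded the vestibular share by 3.64 to 5.11 percentage points under every setting run, a description of the rule's own genes without a test. Without the filter on low counts, 188 genes were called between the organs and 2717 against supporting-like cells. With 1 library left out, 21 to 42 genes were called between the organs and 940 to 2105 against supporting-like cells. Of 21 named genes of the organ comparison, 12 kept their call under every setting that gave the gene an adjusted p, 9 lost it under at least 1 and none changed direction. Of 106 named genes of the other comparison, 92 kept their call under every such setting and 14 lost it under at least 1, and Lrp1 reversed to -0.12 in the cells with at least 4 rule genes and to -0.20 with the cells of another class left out. The cause was not tested. With the replicate block, 2289 genes were called against supporting-like cells, including 1651 of the 1652, no called gene that is named lost its call, and Sgk1, Nr3c2 and Clu passed. Between the organs, equal numbers correlated at 0.224, 0.0359, 0.146 and 0.148, and replicate 3 did not correlate best with its own number, so the numbers were not taken to pair the libraries. There the replicate block gave 36 calls, without Hhatl and Tbx2. Depth limits the vestibular side most, where 55 cells held 255215 UMIs. Leaving out cells with blood UMIs, chosen after seeing the data, gave 43 and 1672 calls.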
